A study of Homo sapiens with 2 samples.

Results

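The matrix metalloproteinases (MMPs), their inhibitors and the plasminogen system were read from 2 one-colour Agilent arrays of SBC-3 cells. SBC-3 is an established, adherent small-cell lung cancer (SCLC) line. The cells were transfected with #1 siHOTAIR, an siRNA against the long noncoding RNA HOTAIR, or, as the control, with siGFP, whose target is green fluorescent protein. Each condition had a single array without a replicate, so no P-value was computed, and the siRNA cannot be told apart from the culture or the array. Both arrays lay on the same slide and were scanned together. The members were 32 genes listed by their function: 22 MMPs, the 4 tissue inhibitors of metalloproteinases (TIMPs), PLAU, PLAUR, PLAT, SERPINE2, RECK and BSG. Probes were assigned to a gene when their RefSeq accession belonged to it, which gave 35 probes for 31 of the 32 genes, out of 19062 genes named in the same way. MMP16 was not analysed here.

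MMPs are zinc endopeptidases that cut collagens and other proteins of the extracellular matrix. Most are secreted as inactive proenzymes, whereas the membrane-type MMPs stay on the cell surface, and TIMPs block the active enzymes. The plasminogen activators PLAU (urokinase) and PLAT (tissue-type activator) turn plasminogen into plasmin, which cuts fibrin and matrix proteins and activates several pro-MMPs. Invasion of a tumor through basement membrane needs such proteolysis, and the study measured matrix invasion of these cells after the same siRNA.

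The treatment is defined by the #1 siHOTAIR duplex, shown here from the 5′ end of each strand. Capitals in the antisense strand mark its seed, bases 2 to 8.
#1 siHOTAIR sense: gaacgggaguacagagagauu
#1 siHOTAIR antisense: uCUCUCUGuacucccguucuu

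Signals are spot intensities from which the scanner software had subtracted the background. The log2 signals of each array were scaled by its 75th percentile, and ratios are #1 siHOTAIR over siGFP. Comparison of a probe required that 50% or more of its spots on either array were well above background. The value after ± is an SD for measurement error, taken from repeated spots at the same level of signal, and it does not cover the spread between cultures. The HOTAIR probe, read from 1 spot, had a signal of 108 with #1 siHOTAIR and 244 with siGFP, a log2 ratio of -1.22 ± 0.18. The SCLC label was set against 12 neuroendocrine genes, of which 5 had signal well above background. NEUROD1 and ENO2 had it on both arrays, CHGA, CHGB and NCAM1 with #1 siHOTAIR only, and INSM1 and SYP on neither. The summed signal of the 12 was 1055 with #1 siHOTAIR and 1236 with siGFP, most of it from ENO2 and NEUROD1, which were lower with #1 siHOTAIR. CHGA, CHGB and NCAM1 went the other way, with 72.2 against 10.2, 27.9 against 7.43 and 25.5 against 7.20. The median log2 ratio of the 5 was 1.78 at measured signals. The CHGB and NCAM1 means with #1 siHOTAIR lay below 37.3, the dimmest spot called well above background on that array. With siGFP all 3 genes were not well above background, so the sizes of these differences are not settled. Of 6 epithelial markers 5 had signal, KRT7, KRT8 and KRT18 with both siRNAs, KRT19 with #1 siHOTAIR only and EPCAM with siGFP only, and their sum was 7634 against 7148. Of other cell types, 2 of 9 fibroblast markers (COL1A1 and COL1A2), 3 of 6 leukocyte markers and 1 of 5 endothelial markers were well above background. Their summed signals were 4656 against 4218, 364 against 302, and 166 against 159, and their part in the results was not tested.

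Of the 31 genes with a probe, 18 had signal well above background, 16 of them with both siRNAs. These 18 were 10 MMPs (MMP7, MMP9, MMP11, MMP14, MMP15, MMP17, MMP19, MMP24, MMP25 and MMP28), TIMP1, TIMP2, RECK, PLAU, PLAT, PLAUR, SERPINE2 and BSG. Read by their brightest probe on average, 14 of the 18 lay within 1.5-fold of equality. TIMP2 and SERPINE2, both inhibitors, were at least 1.5-fold higher with #1 siHOTAIR, and PLAT was at least 1.5-fold lower. MMP7 was also past 1.5-fold lower at its measured signals, but its #1 siHOTAIR level was not well above background. The difference was 1.21-fold with that level raised to the dimmest #1 siHOTAIR spot called well above background. With MMP7 counted these are 11.1% in each direction, against 8.12% higher and 8.71% lower among all 13014 genes compared. At 2-fold only MMP7 remained, again at its measured signals, 1 of 18 or 5.56%, against 6.15% of all genes in either direction. The median log2 ratio of the 18 genes was 0.07, and that of all genes 0.02 with quartiles of -0.22 and 0.25. A share or median this near to that of all genes is not a result about the members.

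**Figure D1:**
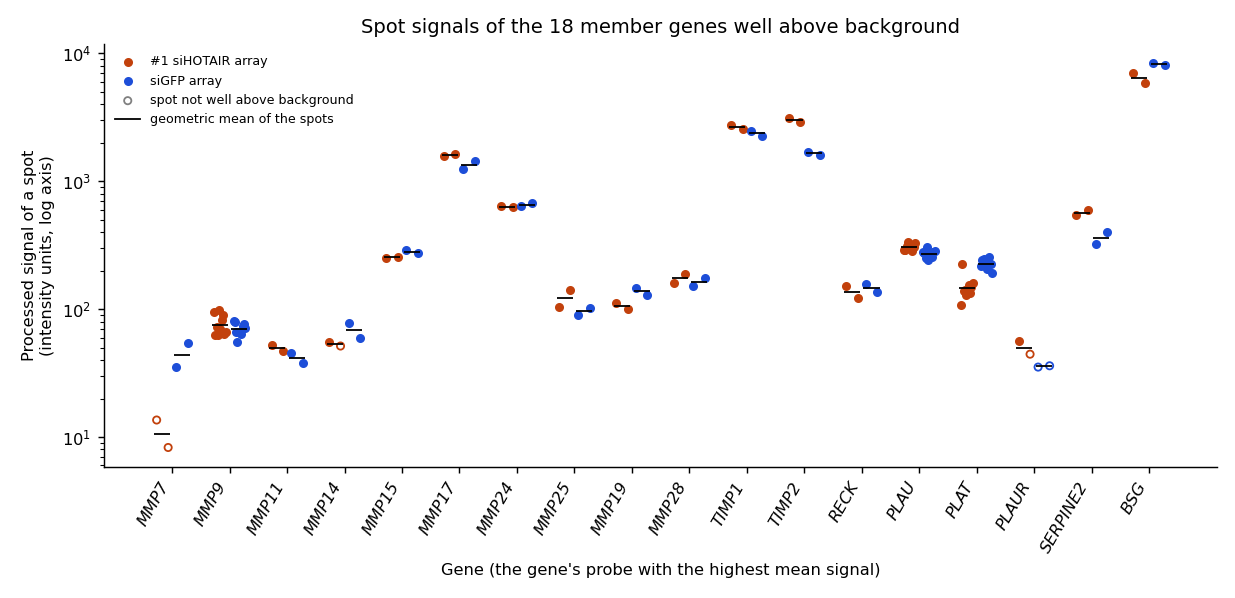
Processed signal of each spot (log axis, intensity units) for the 18 member genes well above background, by the gene's probe with the highest mean signal; open points are spots not well above background and black lines the geometric means. TIMP2 and SERPINE2 have both #1 siHOTAIR spots above both siGFP spots, and MMP7 has 13.6 and 8.29 with #1 siHOTAIR against 35.3 and 54.3 with siGFP.

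Counted by probe, 21 of the 35 member probes were compared. None was at least 2-fold higher, where 3.30% of all 24117 compared probes were, and 1 (MMP7, at its measured signals) was past 2-fold lower, where 4.10% of all were. Of the 18 member probes well above background on both arrays, 0 differed by 2-fold in either direction, against 3.03% of all such probes.

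TIMP2 had the largest ratio among the inhibitors. It encodes an inhibitor that blocks MMP2 and also takes part, together with MMP14, in the activation of pro-MMP2. Its 2 spots read 3111 and 2886 with #1 siHOTAIR and 1692 and 1617 with siGFP. Both spots of the first array lay above both of the second, and the log2 ratio was 0.81 ± 0.06, a 1.75-fold higher level. TIMP1, an inhibitor of most soluble MMPs, read 2739 and 2554 against 2484 and 2280. Its log2 ratio was 0.11 ± 0.06. Under the scalings tried these ratios ran from 0.77 to 0.95 for TIMP2 and from 0.06 to 0.24 for TIMP1. TIMP3, the inhibitor that binds to the matrix, and TIMP4 were well above background on neither array.

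RECK encodes a membrane-anchored inhibitor of MMPs, and its 2 probes differed. The probe with 2 spots read 151 and 123 with #1 siHOTAIR against 159 and 136 with siGFP, a log2 ratio of -0.15 ± 0.13. The probe with 1 spot read 114 against 70.1, a log2 ratio of 0.65 ± 0.18. The probes stand on opposite sides of equality, so no direction can be given for RECK.

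Among the MMPs, MMP7 (matrilysin) had the only difference of 2-fold or more at measured signals. MMP7 is a small MMP without the hemopexin domain that most of the family carry, and epithelial cells are its usual source. Its 2 spots read 13.6 and 8.29 with #1 siHOTAIR, not well above background, and 35.3 and 54.3 with siGFP, well above background. The siGFP spots were both higher, and at these signals the log2 ratio was -2.09 ± 0.49. The #1 siHOTAIR level is only a limit. With it raised to 37.3, the dimmest #1 siHOTAIR spot called well above background, MMP7 was 1.21-fold lower. This limit is not strict, since a #1 siHOTAIR spot of MMP14 read 51.5 and was not well above background. The siGFP mean of 43.8 stood little above the corresponding limit of 28.6. Both spots lay within the first 144 of the 384 rows of the array, which hold 37.5% of all spots and 35.1% of the members' spots, and the part of position in this difference was not tested. Without background correction the log2 ratio was -0.25. The epithelial marker EPCAM was also called well above background with siGFP only, at 25.1 against 9.19, but its siGFP mean lay below the limit of 28.6. KRT7 and KRT8 had log2 ratios of 0.08 and 0.10, and KRT18 was lower with -0.44. KRT19, well above background with #1 siHOTAIR only, had 0.50, and CDH1 was well above background on neither array. The part of these markers in the MMP7 difference was not tested.

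The gelatinases MMP2 and MMP9 cut the type IV collagen of basement membranes. MMP2 was not well above background on either array, with spots of 9.69 and 8.33 with #1 siHOTAIR and 7.46 and 6.28 with siGFP. MMP9 had 10 spots, from 63.2 through a median of 71.3 to 98.3 with #1 siHOTAIR and from 55.7 through 68.8 to 81.1 with siGFP. The ranges overlapped, and the log2 ratio of 0.07 ± 0.09 was smaller than its SD. Of the stromelysins, MMP3 and MMP10 were well above background on neither array. MMP11, which is activated inside the cell by furin, read 52.5 and 47.3 against 45.6 and 38.0, a log2 ratio of 0.21 ± 0.49. The collagenases MMP1, MMP8 and MMP13, which cut fibrillar collagen, were all well above background on neither array. MMP1 had 10 spots, and the 6 not marked as outliers with #1 siHOTAIR ran from 7.53 to 16.9, against 5.91 to 13.3 with siGFP.

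All 5 membrane-type MMPs with a probe were well above background on both arrays, with log2 ratios from -0.39 to 0.30. MMP14 (MT1-MMP), the cell-surface activator of pro-MMP2, read 55.8 and 51.5 with #1 siHOTAIR, the second not well above background, and 78.5 and 59.3 with siGFP. Its log2 ratio was -0.39 ± 0.32. MMP15 read 253 and 255 against 292 and 273, with a log2 ratio of -0.20 ± 0.13. MMP17, which is held at the membrane by a lipid anchor, read 1577 and 1630 against 1237 and 1444, and both #1 siHOTAIR spots were the higher ones. Its log2 ratio was 0.22 ± 0.06. MMP24 read 637 and 629 against 640 and 673, a log2 ratio of -0.10 ± 0.08 that became 0.04 with scaling to the spike-in RNA. MMP25, also lipid-anchored, read 105 and 142 against 90.5 and 102, a log2 ratio of 0.30 ± 0.13 that became 0.02 as the median of both MMP25 probes. A second MMP25 probe with 1 spot, well above background with siGFP only, read 32.3 against 37.5.

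MMP19 and MMP28 were the remaining MMPs with signal. The MMP19 probe with 2 spots read 112 and 99.8 against 147 and 130, a log2 ratio of -0.43 ± 0.13, and both spots lay in the first 144 rows. The MMP19 probe with 1 spot, outside those rows, read 119 against 98.7 and gave 0.23 ± 0.18. The probes had opposite signs, so MMP19 has no settled direction. MMP28 (epilysin) read 160 and 190 against 151 and 175, a log2 ratio of 0.06 ± 0.13.

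**Figure D2:**
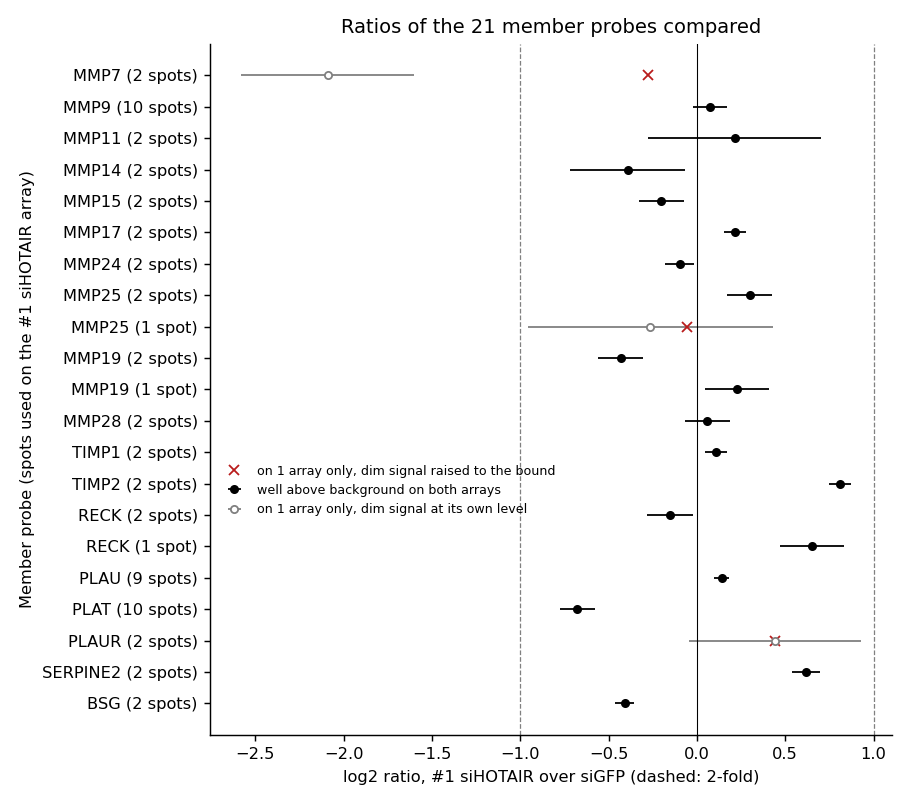
Log2 ratio of the 21 compared member probes, #1 siHOTAIR over siGFP, with error bars of 1 SD for measurement error; open points were well above background on 1 array only and crosses show the same probes with the dim signal raised to its limit. MMP7 moves from -2.09 to -0.28 at the limit, and no probe measured on both arrays passes the dashed 2-fold lines.

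The 13 genes without signal on either array were MMP1, MMP2, MMP3, MMP8, MMP10, MMP12, MMP13, MMP20, MMP21, MMP26, MMP27, TIMP3 and TIMP4. Together with a probe for another PLAU transcript they made up 14 probes, 40.0% of the member probes against 43.1% of all probes. By gene the order was the other one, since 58.1% of the members with a probe and 68.3% of all named genes had signal on either array. The signals of the 14 probes ran from 7.82 to 20.0 with #1 siHOTAIR and from 5.98 to 18.7 with siGFP. The medians were 8.97 and 6.65, and the median log2 ratio was 0.34, as it was over all 18285 probes without signal. No fold change is given for these genes. MMP12 (macrophage elastase) read 20.5 and 19.5 with #1 siHOTAIR against 6.52 and 6.61 with siGFP, still not well above background.

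In the human genome 9 members are direct neighbours among the protein-coding genes of chromosome 11, in the order MMP7, MMP20, MMP27, MMP8, MMP10, MMP1, MMP3, MMP12 and MMP13. MMP7, at the end of this row, was the only one of the 9 well above background, and with siGFP only.

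The activator protein 1 (AP-1) site is a known control element of several MMP genes. The letters TGAGTCA, or TGACTCA on the other strand, were searched in the 250 bases before the start of each gene in RefSeq promoters of GRCh38.p14. Of 27305 promoters, 4.16% held them. The promoters of 19 members were in that table, and those of the other members were not searched. None of the 8 without signal on either array held the letters. Of the 11 with signal, 2 did, MMP7 and PLAUR. Both sites are shown with 10 bases on either side and the motif in capitals, on the minus strand at chr11:102530798-102530824 and chr19:43670339-43670365. A match describes these letters and not binding, and no relation between the motif and the signals was tested.
MMP7: aacactcaaaTGAGTCAcctatttcca
PLAUR: cacaactccaTGAGTCAgggccgagcc
The motif begins 67 bases before the start of MMP7 and 186 bases before that of PLAUR.

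**Figure D3:**
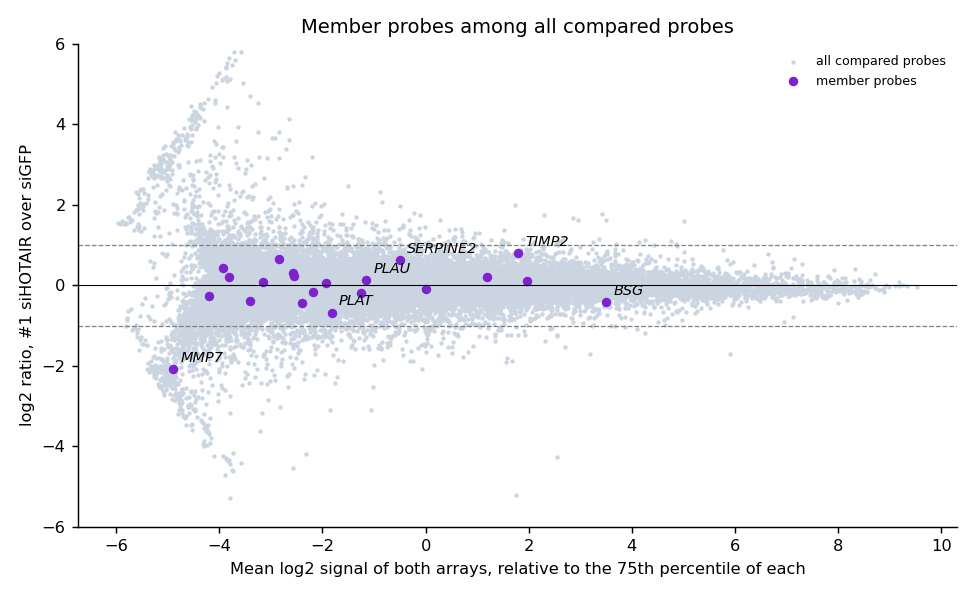
Log2 ratio against the mean log2 signal of both arrays, relative to the 75th percentile of each, for all 24117 compared probes (grey) and the 21 member probes (purple). MMP7 lies in the dimmest part, where ratios spread most, and TIMP2 and BSG lie at brighter signals where the grey cloud is narrower.

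The activators of plasminogen differed from each other. PLAT had 10 spots, which ran from 108 through a median of 139 to 226 with #1 siHOTAIR. With siGFP 2 of the 10 spots were marked as outliers, and the other 8 ran from 191 through 225 to 255. The ranges overlapped by a single #1 siHOTAIR spot, the next highest being 161. The log2 ratio was -0.68 ± 0.10, a 1.60-fold lower level, and all 8 pairs of spots were lower with #1 siHOTAIR. Only 1 of the 10 spots lay in the first 144 rows, and the ratio stayed between -0.71 and -0.41 under the alternative settings. PLAU had 10 spots as well, of which 9 were used with #1 siHOTAIR. They ran from 288 through 306 to 335 against 243 through 272 to 307, and the ranges overlapped. The log2 ratio was 0.14 ± 0.04, and 8 of 9 pairs of spots were higher with #1 siHOTAIR. A second PLAU probe, for another transcript, read 11.6 against 18.7, both too dim to call.

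PLAUR encodes the urokinase receptor, which gathers PLAU at the cell surface. Its 2 spots read 56.3 and 44.5 with #1 siHOTAIR, of which 1 was well above background, and 35.3 and 36.1 with siGFP, neither of which was. The measured level was 1.36-fold higher with #1 siHOTAIR, but the log2 ratio of 0.44 ± 0.49 was smaller than its SD, and it was 0.09 without background correction. SERPINE2 (protease nexin-1) is a serpin that inhibits thrombin, urokinase and plasmin. It read 540 and 598 with #1 siHOTAIR and 323 and 398 with siGFP, so both spots were higher. Its log2 ratio was 0.62 ± 0.08, a 1.54-fold higher level, and ran from 0.47 to 0.76 under the alternative settings.

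BSG (basigin, also called EMMPRIN) is a membrane glycoprotein that induces MMPs in neighbouring cells. Its spots read 6991 and 5850 with #1 siHOTAIR and 8386 and 8073 with siGFP, all outside the first 144 rows. Both #1 siHOTAIR spots were the lower ones. The log2 ratio was -0.41 ± 0.05, a 1.33-fold lower level, and remained between -0.44 and -0.27 under the alternative settings.

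Other genes of the pathway were read from 4 lists. Of 20 partners of the plasminogen system, 19 had a probe and 10 were compared. None was at least 2-fold higher and 1 was lower, where 2.74% and 3.41% of all genes compared were. The median log2 ratio was -0.28, against 0.02 over all genes. The lower gene was PLGRKT, a membrane receptor that brings plasminogen to the cell surface. Its single spot read 221 with #1 siHOTAIR and 471 with siGFP, a log2 ratio of -1.14 ± 0.14 or a 2.21-fold lower level. ANXA2 (annexin A2) and S100A10 form a complex on the cell surface that binds plasminogen and PLAT. The ANXA2 probe with 1 spot read 20253 against 27981, a log2 ratio of -0.51 ± 0.07, and the other probe read 88.9 and 109 against 164 and 132 and gave -0.62 ± 0.13. S100A10, named after its values were seen, read 1174 and 1033 against 1636 and 1618, a log2 ratio of -0.61 ± 0.06, with both spots in the first 144 rows. ENO1, a glycolytic enzyme that also binds plasminogen, had -0.21 ± 0.05, and F12 (coagulation factor XII) had 0.09 ± 0.05.

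Plasminogen itself (PLG) and SERPINB2, an inhibitor of PLAU, both named after their values were seen, were well above background on neither array.

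**Figure D4:**
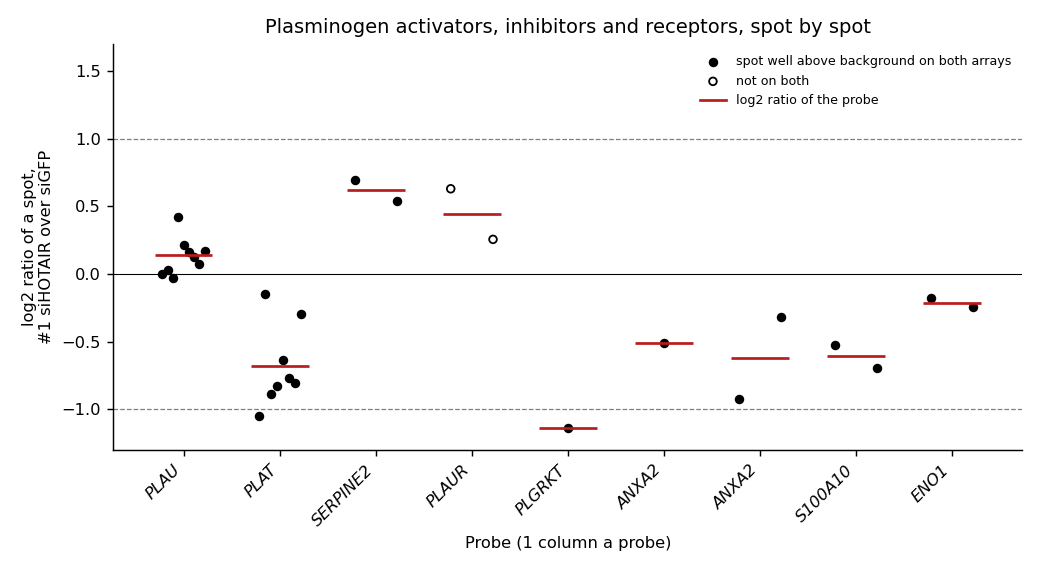
Log2 ratio of each spot, #1 siHOTAIR over siGFP, for plasminogen activators, inhibitors and receptors, 1 column a probe; open points were not well above background on both arrays and red lines mark the ratio of the probe. All 8 PLAT pairs lie below 0, both SERPINE2 spots lie above it, and every spot of PLGRKT, ANXA2, S100A10 and ENO1 lies below it. The partner genes drawn are a chosen part of the 10 compared, of which 4 had a log2 ratio above 0 and 6 below.

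Of the 27 ADAM and ADAMTS genes, related metalloproteinases of the cell surface and matrix, 13 were compared, with a median log2 ratio of 0.17. At their measured signals ADAM9 and ADAMTS2 were past 2-fold higher and none was lower, against 2.74% and 3.41% of all genes. Both genes were well above background with #1 siHOTAIR only. ADAM9, a membrane sheddase, read 54.0 and 37.4 with #1 siHOTAIR, of which 1 spot was well above background, and 28.2 and 9.59 with siGFP. With the siGFP level raised to the limit of 28.6 it was 1.52-fold higher. ADAMTS2, which trims procollagen, read 53.7 against 19.6 from 1 spot, a 1.82-fold difference at the same limit. The other ADAMTS2 probe, well above background on neither array, read 13.1 and 19.8 against 27.9 and 19.4. ADAMTS7 had -0.05 ± 0.07 from 1 spot, ADAM15 had -0.37 ± 0.05 and ADAMTS4 had 0.31 ± 0.06. Another ADAM15 probe, with 1 spot at 1485 against 1466, had -0.03 ± 0.09 and did not share the lower level. Another ADAMTS7 probe had 0.04 ± 0.09, and the remaining ADAMTS7 probes were well above background on neither array.

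Of 29 other proteases, inhibitors and matrix enzymes, 27 had a probe and 15 were compared, with a median of 0.14. KLK6, a kallikrein-related serine protease, was the only one at least 2-fold higher and none was lower, against 2.74% and 3.41% of all genes. Its 1 spot read 454 against 213, a log2 ratio of 1.05 ± 0.16, whereas a second KLK6 probe was well above background on neither array. SERPINH1, the collagen chaperone HSP47, read 11541 and 11126 against 6538 and 6186, a log2 ratio of 0.79 ± 0.05. HYAL2, a hyaluronidase, had 0.67 ± 0.05 and CSTB, a cathepsin inhibitor, -0.16 ± 0.05. Of 19 genes for MMP activation and transcription, 14 were compared, with a median of 0.02. None differed by 2-fold, against 6.15% of all genes. SNAI2, a factor of epithelial-mesenchymal transition, read 1674 against 1096 on average, a log2 ratio of 0.57 ± 0.06. FOSL1, an AP-1 subunit, had 0.09 ± 0.08 and RELA, a subunit of NF-κB, had 0.11 ± 0.05. Over all 4 lists 52 of 92 genes were compared, and 3 were past 2-fold higher and 1 lower at their measured signals. Among all genes compared, 2.74% were higher and 3.41% lower. The median of the 52 was 0.05, near that of all genes.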

How the data were processed

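Cy3-labelled RNA was hybridized by the authors to Agilent SurePrint G3 arrays, and spots were read with Feature Extraction 10.10.1.1. Deposited processed signals are intensity values after background subtraction and detrending by that software, without normalization between arrays. The deposited series table holds the background-subtracted intensity of the same spots (largest difference 0).

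From 58717 spots that were not controls, log2 signals were scaled by the 75th percentile, 650.3 for #1 siHOTAIR and 629.9 for siGFP. Outlier spots were left out, 393 and 375, and remaining spots averaged by probe. Of 42402 probes, 52.1% and 55.3% were well above background. Levels not well above background were raised to 37.3 and 28.6 for limits, or kept where higher. Spots not well above background can read above these levels, so the limits are not strict bounds. Counts and medians used the levels as measured. Accessions were matched without versions to gene names of GRCh38.p14. Measurement SDs came from probes spotted 10 times, in 6 classes of signal, or from the probe's own spots on arrays where 9 or more were used. The 2 spots of a probe could vary more or less than their class. They varied more for BSG (SD 0.18 with #1 siHOTAIR), SERPINE2 (0.21 with siGFP) and MMP17 (0.16 with siGFP), so the value after ± may be too small there. Calls were checked on simulated data with the same noise at every level of signal. Repeated spots varied more than that at dim signals, so the check does not cover calls on dim probes. Normexp (limma 3.58.1, offset 50) was run on the median signal of each spot, in place of the planned mean signal.

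The members and lists were chosen with earlier results of these data known. Named genes were all members, partner genes past 2-fold, and the 3 of each list with the highest mean signal. Every other partner gene was named after its values were seen. The number of arrays limits the precision. Alternatives were other scalings, background corrections, filters, thresholds, probes and spots, and the series table. Values of some genes in the lists are not reported here.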

Additional observations from a re-analysis of the deposited data

How the results depend on the processing

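Among the recomputed counts and medians, 79 stayed within 1.5 times of the value given or, for medians, within the measurement SD of 0.11, and 26 did not. Scaling to the spike-in RNA raised all ratios by 0.14, so the median was 0.20 for members, 0.18 for partners and 0.16 for all genes compared. Member probes at least 2-fold lower numbered 0 with normexp, without background correction and without the first 144 rows. They also numbered 0 with dim signals at their limit and with every spot required to be well above background. Without the first 144 rows MMP7 had no spot left, and in the rest of these settings it failed the threshold or the filter. Partner genes higher numbered 0, 0, 1, 1 and 1 under these settings, and partner genes lower 0 with normexp and without background correction. With no filter, 35 member probes were compared, 1 was higher (MMP12) and the median was 0.29. For partners, 92 genes were compared, 5 were higher and the median was 0.16. The median of all named genes with no filter was 0.11. Probes without signal on either array, which enter here, had a median of 0.34 over the whole array. At 1.5-fold, 3 member probes were higher and 2 lower. By gene these were 2 of 18 members higher and 2 lower. Of 52 partner genes, 7 were higher and 7 lower. Among all genes compared, 8.12% were higher and 8.71% lower at 1.5-fold. No such share is given for probes at 1.5-fold, nor for the counts with no filter or at 3-fold. Those counts are therefore not results about the members or partners. At 3-fold, partner genes numbered 0 higher and 0 lower. No paired analysis was possible because each condition had 1 array, and no array could be left out for the same reason. MMP7, ADAM9 and ADAMTS2 were each well above background on 1 array only, so the sizes of their differences are not settled.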

Other observations

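Some other genes of the lists, named after their values were seen, had spots that differed alike between the arrays without passing 2-fold. JUN, a subunit of AP-1, read 480 and 486 with #1 siHOTAIR and 883 and 856 with siGFP, a log2 ratio of -0.89 ± 0.08. FOSL2, another AP-1 subunit, read 625 and 518 against 337 and 342, a log2 ratio of 0.70 ± 0.08. ADAM8, a sheddase of leukocytes and tumor cells, read 292 and 281 against 501 and 461, a log2 ratio of -0.79 ± 0.10. ADAMTS13, which cuts von Willebrand factor, read 187 and 206 against 319 and 367, a log2 ratio of -0.85 ± 0.10. CTSK, a cathepsin that cuts collagen, read 146 and 133 against 243 and 214, a log2 ratio of -0.76 ± 0.13, with both spots in the first 144 rows. FURIN, the convertase that activates membrane-type MMPs, was well above background with siGFP only, where its mean was 57.1 against 33.2 with #1 siHOTAIR. With the #1 siHOTAIR level raised to its limit, FURIN was 1.58-fold lower with #1 siHOTAIR. The limit is not strict, since a #1 siHOTAIR spot of FURIN read 39.9, above the limit, and was not well above background.

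The probes of ADAM10, a sheddase, differed. The probe with 1 spot read 537 with #1 siHOTAIR against 306 with siGFP, a log2 ratio of 0.77 ± 0.16, and the probe with 2 spots had means of 108 against 132, a log2 ratio of -0.34 ± 0.13.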
